A study of Mus musculus with 6 samples.

Results

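The subunits of oxidative phosphorylation (OXPHOS) are the protein parts of the respiratory chain complexes I to IV and of the ATP synthase, complex V. Their transcripts were taken from the table of raw counts by gene symbol. Patterns covered the Nduf, Sdh, Uqcr, Cyc1, Cox4 to Cox8 and Atp5 genes of the nucleus and the protein-coding genes of mitochondrial DNA (mtDNA). Symbols that contain -ps were left out, and a count of 10 or more in at least 3 libraries was asked for. Of 37384 symbols, 113 matched the patterns, 11 were left out as -ps symbols and 4 for low counts, so that 98 remained, 85 encoded in the nucleus and 13 in mtDNA. All 98 had a count of 10 or more in each of the 6 libraries, and all passed the filter on low counts. The 4 symbols with low counts were Cox6a2, the subunit 6a isoform of heart and skeletal muscle, with at most 9 counts in a library, Ndufa11b with at most 3, Cox7b2 with at most 2 and Cox8c, which had 0 counts in every library. Among the 85 nuclear genes, Cox6c2, Ndufb4c and Ndufs6b are annotated as processed pseudogenes.

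Electrons from NADH enter the chain at complex I and electrons from succinate at complex II, and both pass through ubiquinone to complex III, through cytochrome c to complex IV and on to oxygen. The proton gradient built on the way drives the ATP synthase, and in thermogenic adipocytes it is instead dissipated as heat by uncoupling protein 1. Complex II is made entirely from nuclear genes, whereas the other complexes combine nuclear subunits with a small set made inside the mitochondrion from mtDNA, which is transcribed on both strands as long precursors and then cut.

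RNA was sequenced from floated adipocytes of inguinal subcutaneous white adipose tissue (scWAT) of male mice at postnatal day 7 (P7). There were 3 libraries of L1L2-FF mice, which carry floxed Lats1 and Lats2 alleles, and 3 of L1L2-AKO mice, which carry the same floxed alleles and Cre recombinase driven by the Adipoq promoter, active in adipocytes. Each library came from a pool of 4 mice, so that a library is an average over animals. LATS1 and LATS2 are the kinases of the Hippo pathway that restrain YAP and TAZ, and the comparison asked how loss of both kinases in adipocytes bears on the OXPHOS genes.

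The total count ranged from 30548473 to 32107917 per library. Of 15674 genes tested, 2580 passed an adjusted p of 0.05 (16.5%), 1125 of them lower in L1L2-AKO (7.18%) and 1455 higher (9.28%). Lats1 was at 82.9 ± 9.9 counts scaled to the library size (CPM) in L1L2-FF and 40.2 ± 1.16 CPM in L1L2-AKO (SD, n = 3), but Lats2 went against the label, at 76.4 ± 8.67 CPM in L1L2-FF and 119 ± 20.6 CPM in L1L2-AKO. Which part of Lats2 is floxed, and whether reads of a deleted allele were counted, is not given in the sources used here, so its level does not tell whether the allele was deleted. Every direction given here is between libraries labelled L1L2-AKO and libraries labelled L1L2-FF. Levels are CPM after scaling by the trimmed mean of M values (TMM), and differences are fitted log2 fold changes of L1L2-AKO over L1L2-FF, so that negative values are lower in L1L2-AKO.

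To show the regulatory sequence in front of these genes, the promoter windows of RefSeq on GRCm38.p6, from 250 bases before to 50 bases after each start site, were searched on both strands for motifs of regulators known for OXPHOS genes and for the TEAD partners of YAP. A window was at hand for 67 of the 85 nuclear members. The NRF1 motif, the site of nuclear respiratory factor 1, was present for 17 of the 67 members (25.4%) and for 5.19% of all 27025 genes with a window. The YY1 motif AAGATGGCG was present for 7 members (10.4%, against 1.64% of all genes), the ETS motif CCGGAAGT for 5 (7.46%, against 4.31%) and the ERR motif TCAAGGTCA of the estrogen-related receptors for 2 (2.99%, against 0.466%). TEAD's CATTCC was present for 7 members (10.4%), while 16.6% of all genes held it. Of the 22 members that had a window and were lower in L1L2-AKO, 4 held the NRF1 motif, 4 the ETS motif, 3 the TEAD motif, 2 the YY1 motif and 0 the ERR motif. Over the 17492 protein-coding genes alone, the shares were 7.17% for NRF1, 5.69% for ETS, 2.14% for YY1, 0.377% for ERR and 15.5% for TEAD. These shares describe letters in a window and were not tested.

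The sequences of 4 genes that were lower in L1L2-AKO are shown as examples of windows with these motifs and without any. They are the bases before the RefSeq start site that lie outside the gene as GENCODE M21 annotates it, 5′ to 3′ on the strand of the gene, with motif matches in capitals. Those of Sdha and Atp5h show the NRF1 motif, that of Uqcr11 the ETS motif, and that of Cox8b, the member with the most negative fold change, holds none of the 5 motifs.
Sdha, chr13:74350281-74350490, minus strand: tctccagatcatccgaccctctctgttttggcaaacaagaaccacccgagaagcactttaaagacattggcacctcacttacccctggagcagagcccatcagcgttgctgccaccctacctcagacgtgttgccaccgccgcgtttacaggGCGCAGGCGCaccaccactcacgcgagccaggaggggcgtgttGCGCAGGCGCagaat
Atp5h, chr11:115419963-115420169, minus strand: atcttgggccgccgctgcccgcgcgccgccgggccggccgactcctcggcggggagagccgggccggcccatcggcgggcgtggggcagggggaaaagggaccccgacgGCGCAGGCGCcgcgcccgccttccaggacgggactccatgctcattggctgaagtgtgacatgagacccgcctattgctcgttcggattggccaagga
Uqcr11, chr10:80406831-80407071, minus strand: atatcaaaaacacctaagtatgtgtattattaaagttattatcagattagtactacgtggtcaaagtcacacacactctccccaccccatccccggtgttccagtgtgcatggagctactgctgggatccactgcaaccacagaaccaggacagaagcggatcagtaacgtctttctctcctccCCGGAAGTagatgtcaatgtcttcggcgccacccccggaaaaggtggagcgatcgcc
Cox8b, chr7:140900447-140900696, minus strand: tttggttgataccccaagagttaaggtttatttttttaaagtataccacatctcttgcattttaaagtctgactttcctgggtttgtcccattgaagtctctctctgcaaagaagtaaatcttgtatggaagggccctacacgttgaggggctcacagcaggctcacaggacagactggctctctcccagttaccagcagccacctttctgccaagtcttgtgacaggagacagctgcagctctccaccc

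The nuclear OXPHOS genes were lower as a body in the libraries labelled L1L2-AKO. Their summed level was 18180, 13676 and 21732 CPM in L1L2-FF replicates 1, 2 and 3, and 11833, 12174 and 11384 CPM in L1L2-AKO replicates 1, 2 and 3. All L1L2-FF libraries lay above all L1L2-AKO libraries, with L1L2-FF replicate 2 close to them, and the mean was lower in L1L2-AKO by 34% of the L1L2-FF mean (17863 ± 4037 against 11797 ± 396 CPM, SD, n = 3). With 3 libraries a side, an exact permutation test of a single value such as this can reach a two-sided p of 0.1 at best. Gene by gene, 25 of the 85 nuclear members were lower in L1L2-AKO in the quasi-likelihood test of edgeR, adjusted by Benjamini-Hochberg over all 15674 genes (29.4%, beside 7.18% of all genes tested), and 0 were higher. At an unadjusted p under 0.05, 64 were lower and 0 higher, beside 2405 lower and 2423 higher of all 15674 genes tested. That background applies to each unadjusted count given below. DESeq2 and limma-voom also found 0 nuclear members higher. The fitted fold change was below 0 for 83 of 85, beside 52.1% of all genes, and the median was -0.55 on the log2 scale, beside -0.02 over all genes tested. For 54 members (63.5%) all L1L2-AKO libraries were below all L1L2-FF libraries, beside 18.4% of all genes tested, and for 0 they were all above. Genes without overlap in either direction made up 36.4% of all genes tested.

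**Figure D1:**
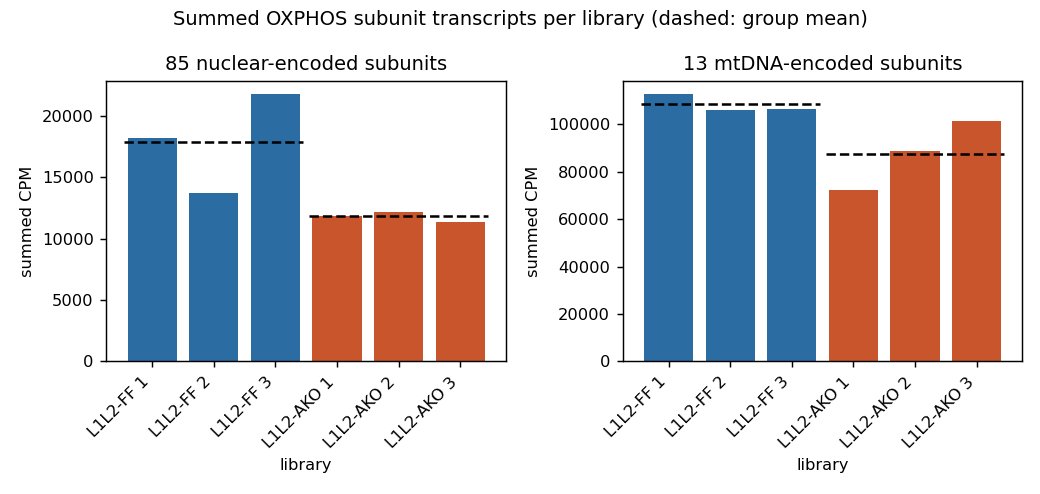
Summed CPM of the 85 nuclear-encoded subunits (left) and the 13 mtDNA-encoded subunits (right) in each library, with bars from 0 and dashed lines at the group means. The nuclear sum lies between 13676 and 21732 CPM in L1L2-FF and between 11384 and 12174 CPM in L1L2-AKO, while the mtDNA sum of L1L2-AKO spreads from 72215 to 101617 CPM.

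How many nuclear members passed the threshold depended on single libraries, L1L2-FF replicate 2 above all. This library had the lowest L1L2-FF level for 78 of the 85 nuclear members, and L1L2-FF replicate 3 had the highest for 78. L1L2-FF replicates 1 and 3 were both above all L1L2-AKO libraries for 82 members. That count leaves out a library singled out on these same members, and it was not made over all genes tested. L1L2-FF replicate 2 was above all L1L2-AKO libraries for 54 members and below the L1L2-AKO mean for 18. Accordingly the median coefficient of variation between libraries was 22.6% over the nuclear members in L1L2-FF, but only 6.0% in L1L2-AKO, against 16.3% and 12.8% over all genes tested, and it was larger in L1L2-FF for 80 of 85. Without L1L2-FF replicate 2, 75 of 85 were lower (beside 8.09% of all genes tested in that fit), with a median log2 fold change of -0.71. Without L1L2-FF replicate 1 the count was 4 (3.2% of all genes), without L1L2-FF replicate 3 it was 15 (6.13%), and without L1L2-AKO replicate 1, 2 or 3 it was 10, 5 and 5 (4.75%, 2.9% and 3.3%). In each of these fits 0 members were higher.

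L1L2-FF replicate 2 also stood apart in markers of some other cells, and the part of this in the results was not tested. Summed macrophage markers were at 527 CPM there, and at 360 and 272 CPM in L1L2-FF replicates 1 and 3. Red cell markers were at 2945 CPM there, and at 1728 and 1521 CPM in the other two. Mature adipocyte markers were at 15653 CPM there, against 19151 and 18430 CPM. The same library was thus the lowest of its genotype for mature adipocyte markers and the highest for both others. It was also the highest for progenitor, Schwann cell and skeletal muscle markers. For endothelial, mural cell and brown and beige adipocyte markers it lay between L1L2-FF replicates 1 and 3 (2559, 1334 and 536 CPM).

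Complex I, the NADH dehydrogenase, had the most members, and all 37 of its nuclear members had a fold change below 0. Of these, 15 were lower in L1L2-AKO (40.5%, beside 7.18% of all genes tested), the median was -0.55, and 25 did not overlap between the genotypes (67.6%, beside 18.4%). Among the 7 nuclear core subunits, which carry the flavin and iron-sulfur clusters and bind the substrates, 4 were lower (Ndufs3, Ndufs7, Ndufv1 and Ndufv2), with a median of -0.57, and among the 28 accessory subunits 11 were lower, with a median of -0.52. Ndufs7, the core subunit next to the ubiquinone site, was at 83.5, 84.5 and 102 CPM in L1L2-FF and at 52.6, 55.4 and 55.3 CPM in L1L2-AKO. Both genotypes were tight for this gene, and its log2 fold change of -0.73 ± 0.12 (SE) had the smallest adjusted p among the members, 0.0052 in edgeR with Benjamini-Hochberg adjustment. Ndufa10, an accessory subunit of the membrane arm, was at 241, 196 and 275 CPM in L1L2-FF and at 137, 141 and 133 CPM in L1L2-AKO (-0.79 ± 0.14, SE). Ndufa6, an accessory subunit near the ubiquinone site, was at 76.1, 83.7 and 91.5 CPM in L1L2-FF and at 45.2, 57.2 and 48.9 CPM in L1L2-AKO (-0.73 ± 0.13, SE). In these 3 genes no L1L2-FF library came near to L1L2-AKO, and together with Cox8b they were the 4 members that stayed past the threshold whichever library was left out.

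Ndufb9, an accessory subunit of the membrane arm, was the nuclear complex I member with the largest fall. It also had the highest nuclear mean of the complex per exon length over all 6 libraries (149 CPM per kb), though in L1L2-AKO Ndufc2 was above it (117 and 107 CPM per kb). Its levels were 204, 145 and 243 CPM in L1L2-FF and 111, 113 and 107 CPM in L1L2-AKO, a log2 fold change of -0.84 ± 0.18 (SE; edgeR adjusted p by Benjamini-Hochberg 0.018). The L1L2-FF libraries spread widely and the L1L2-AKO libraries did not. Ndufb9 shares 201 exonic bases with Gm49356 on the same strand and 15.6% of its 50-base stretches with other transcripts, so some of its reads could belong elsewhere. The least negative nuclear member of complex I was Ndufb7 (-0.27 ± 0.19, SE), which was not past the threshold.

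**Figure D2:**
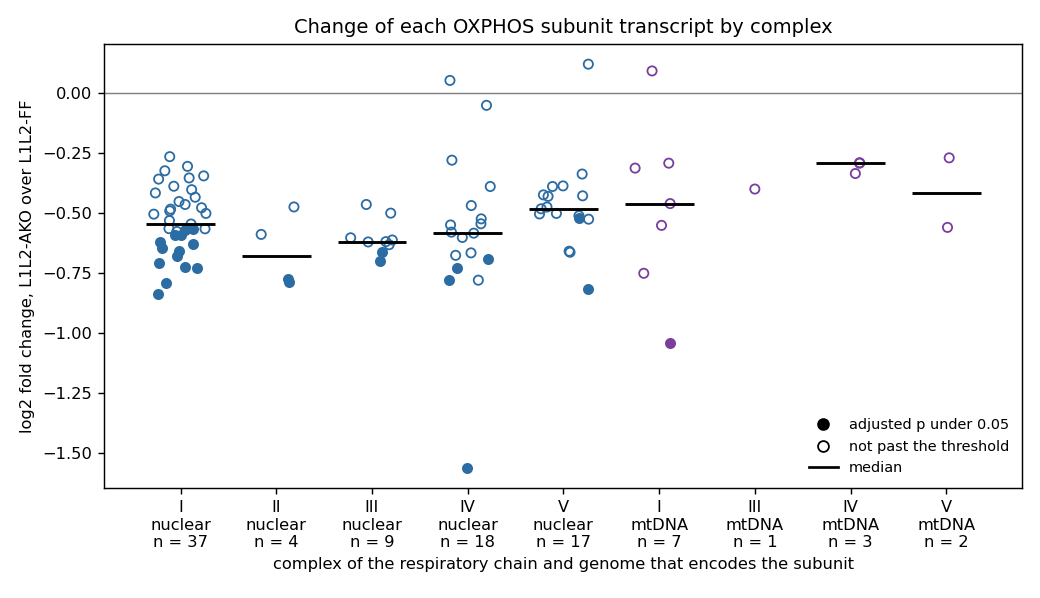
Fitted log2 fold change of L1L2-AKO over L1L2-FF for each subunit, by complex and encoding genome, with filled points for an edgeR adjusted p under 0.05, open points for the rest and black lines at the medians. Nearly all points lie below 0, the nuclear medians run from -0.68 in complex II to -0.48 in complex V, and Cox8b at -1.56 and mt-Nd6 at -1.04 lie farthest down in their genomes.

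Complex II, succinate dehydrogenase, which also serves the citric acid cycle, had the most negative median of the nuclear complexes (-0.68), and all 4 genes were without overlap between the genotypes (beside 18.4% of all genes tested). Sdha, the flavoprotein that oxidizes succinate, was at 762, 676 and 977 CPM in L1L2-FF and at 455, 488 and 471 CPM in L1L2-AKO (-0.77 ± 0.17, SE; edgeR adjusted p by Benjamini-Hochberg 0.018). Sdhb, the iron-sulfur subunit, was at 260, 193 and 311 CPM in L1L2-FF and at 162, 146 and 134 CPM in L1L2-AKO (-0.79 ± 0.18, SE; edgeR adjusted p by Benjamini-Hochberg 0.024). Both catalytic subunits were lower in L1L2-AKO. The membrane anchors Sdhc and Sdhd had fold changes of -0.48 and -0.59 on the log2 scale, and with edgeR adjusted p values of 0.086 and 0.051 (Benjamini-Hochberg) they did not pass the threshold. Per exon length Sdhd had the highest mean level of the complex over all 6 libraries (157 CPM per kb), though in L1L2-FF Sdha was above it (195 and 189 CPM per kb).

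For complex III, the cytochrome bc1 complex, 2 of 9 nuclear members were lower (22.2%, beside 7.18% of all genes tested) and 7 of 9 did not overlap (77.8%, beside 18.4%), with a median of -0.62. Uqcrfs1, the Rieske iron-sulfur protein, was at 283, 224 and 357 CPM in L1L2-FF and at 183, 184 and 163 CPM in L1L2-AKO (-0.70 ± 0.18, SE). Uqcr11, a small subunit, was at 150, 107 and 165 CPM in L1L2-FF and at 85.3, 87.7 and 93.2 CPM in L1L2-AKO (-0.66 ± 0.16, SE). Per exon length Uqcr11 had the highest nuclear mean of the complex over all 6 libraries (179 CPM per kb), though in L1L2-AKO Uqcr10 was above it (144 and 138 CPM per kb). In both Uqcrfs1 and Uqcr11, L1L2-FF replicate 2 was the library nearest to L1L2-AKO. Uqcrc1, a core subunit, and Uqcrh missed the threshold narrowly (-0.61 and -0.50, edgeR adjusted p 0.052 for each by Benjamini-Hochberg), and the other 5 members, among them Cyc1, the heme-bearing cytochrome c1 (-0.63 ± 0.22, SE), were not past it either.

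Complex IV, cytochrome c oxidase, had the widest range of fold changes of the nuclear complexes, from -1.56 to 0.05. Of its 18 nuclear members 4 were lower (Cox4i1, Cox6c, Cox8a and Cox8b), or 22.2% beside 7.18% of all genes tested, 12 did not overlap (66.7%, beside 18.4%), and the median was -0.58. Cox8b, the subunit 8 isoform of muscle and brown fat, was at 56.2, 44.1 and 81.5 CPM in L1L2-FF and at 16.9, 26.6 and 18.1 CPM in L1L2-AKO. Its log2 fold change of -1.56 ± 0.26 (SE; edgeR adjusted p by Benjamini-Hochberg 0.0060) was the most negative of the 98 members, and it stayed between -1.79 and -1.29 when any library was left out. Cox8a, the isoform found in most tissues and the most abundant nuclear member per exon length (548 CPM per kb), was at 462, 329 and 496 CPM in L1L2-FF and at 248, 259 and 242 CPM in L1L2-AKO (-0.78 ± 0.17, SE). Cox4i1, the main form of subunit 4, was at 511, 425 and 577 CPM in L1L2-FF and at 294, 331 and 287 CPM in L1L2-AKO (-0.73 ± 0.15, SE), and it shares 154 exonic bases with Emc8 on the opposite strand.

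Alternative isoforms of one subunit were compared by their ratio per exon length within each library, without a background over other gene pairs. The level of Cox8b per exon length relative to Cox8a was 0.209, 0.230 and 0.283 in L1L2-FF and 0.117, 0.177 and 0.129 in L1L2-AKO, without overlap. Cox7a1, the subunit 7a isoform of muscle and brown fat, was at 36, 37.7 and 63.0 CPM in L1L2-FF and at 23.3, 33.5 and 22.7 CPM in L1L2-AKO, and its fold change of -0.78 ± 0.25 (SE) did not pass the threshold (edgeR adjusted p by Benjamini-Hochberg 0.069). Its ratio to Cox7a2 overlapped between the genotypes (0.632 ± 0.13 against 0.531 ± 0.098, SD, n = 3), and Cox7a2 and Cox7a2l, which assists supercomplex formation, were not past the threshold either (-0.55 and -0.39). The minor forms Cox4i2, an isoform of lung and of low oxygen, and Cox6b2, an isoform of testis, were near 0 in fold change (-0.05 ± 0.27 and 0.05 ± 0.20, SE) at levels of 6.23 and 3.54 CPM in L1L2-FF, and their signs turned when a library was left out. Their common counterparts Cox4i1 and Cox6b1 had fold changes of -0.73 and -0.67, of which that of Cox6b1 was not past the threshold, as that of Cox6a1 was not (-0.52). Ndufa4, named for complex I but a subunit of complex IV, was at -0.55 ± 0.18, and its paralogue Ndufa4l2, known from low oxygen, at -0.28 ± 0.32 (SE), neither past the threshold.

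**Figure D3:**
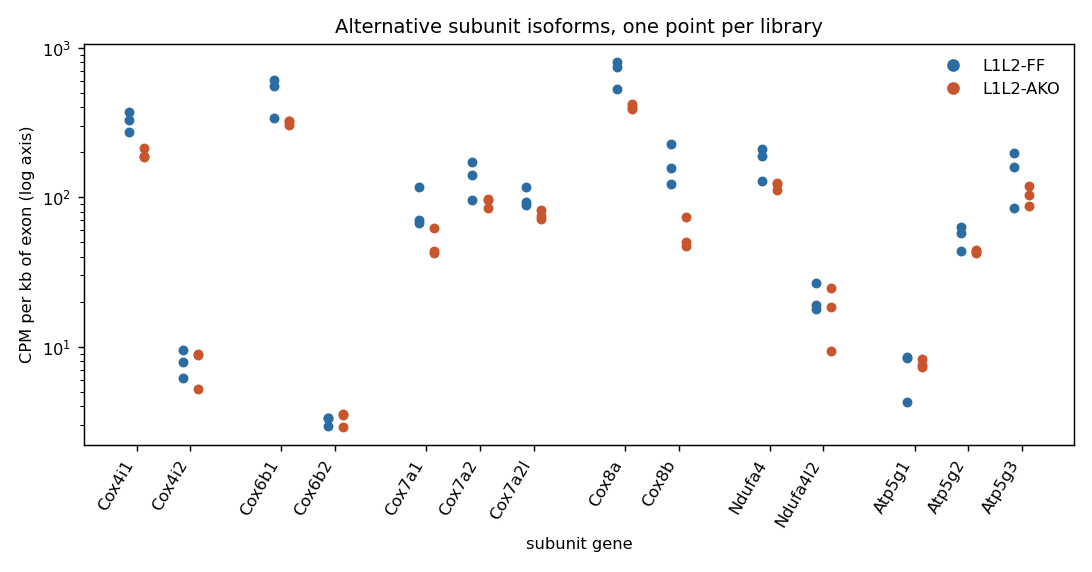
CPM per kb of exon on a log axis for alternative isoforms of OXPHOS subunits, with 3 points per genotype and gene. The L1L2-AKO points lie below all L1L2-FF points for Cox8b, and also for Cox4i1, Cox6b1, Cox7a1, Cox7a2l, Cox8a and Ndufa4. For Cox4i2, Cox6b2, Cox7a2, Ndufa4l2, Atp5g1, Atp5g2 and Atp5g3 the genotypes overlap.

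In complex V, the ATP synthase, 2 of 17 members were lower (11.8%, beside 7.18% of all genes tested) and 6 did not overlap (35.3%, beside 18.4%), and the median of -0.48 was the least negative of the nuclear complexes. Atp5c1, the gamma subunit that turns within the catalytic head, was at 469, 386 and 570 CPM in L1L2-FF and at 280, 275 and 255 CPM in L1L2-AKO (-0.82 ± 0.16, SE; edgeR adjusted p by Benjamini-Hochberg 0.013). Atp5h, part of the peripheral stalk, was the other (-0.52 ± 0.15, SE). The catalytic beta subunit Atp5b, the most abundant of the complex per exon length (490 CPM per kb), was at 2719, 1800 and 3115 CPM in L1L2-FF and at 1685, 1597 and 1537 CPM in L1L2-AKO. The genotypes did not overlap, but with L1L2-FF replicate 2 so near to L1L2-AKO the fold change of -0.66 ± 0.23 (SE) did not pass the threshold (edgeR adjusted p by Benjamini-Hochberg 0.083).

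The genes Atp5g1, Atp5g2 and Atp5g3, which encode the same mature subunit of the rotor ring, form a small family of their own. Atp5g3, the most abundant, was at 348, 186 and 428 CPM in L1L2-FF and at 260, 190 and 225 CPM in L1L2-AKO, and Atp5g2 was at 91.7 ± 17.2 and 72.6 ± 1.94 CPM (SD, n = 3). Atp5g1 was at 41.4, 21 and 42.0 CPM in L1L2-FF and at 40.8, 35.8 and 36.9 CPM in L1L2-AKO. None of them passed the threshold, and the fold change of Atp5g1 (0.12 ± 0.24, SE) turned to -0.14 without L1L2-FF replicate 2. The ratio of Atp5g1 to Atp5g3 per exon length was nonetheless higher in every L1L2-AKO library, at 0.0697, 0.0833 and 0.0729, than in any L1L2-FF library, at 0.0528, 0.0502 and 0.0436. Several such ratios were taken, and no background over other gene pairs was made. Of the 50-base stretches of Atp5g1 and Atp5g2, 11.1% and 38.3% occur in other transcripts.

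The mtDNA-encoded genes were lower in sum as well, but few of them passed the test. Their summed level was 112651, 106163 and 106621 CPM in L1L2-FF and 72215, 88820 and 101617 CPM in L1L2-AKO, lower by 19.3% in the mean without overlap (108478 ± 3621 against 87551 ± 14742 CPM, SD, n = 3). The sums overlapped over the 6 genes with less than 10% of their 50-base stretches in other transcripts. Those sums were 55237, 49775 and 57892 CPM in L1L2-FF and 36577, 44795 and 51140 CPM in L1L2-AKO. Here L1L2-AKO was the more variable genotype, since L1L2-AKO replicate 1 was its lowest library for 13 of 13 genes and L1L2-AKO replicate 3 its highest for 12. Over these genes the median coefficient of variation was 12.2% (L1L2-FF) and 19.5% (L1L2-AKO), the opposite order to the nuclear members. These 13 genes took 10.3 to 11.2% of the counts in L1L2-FF and 7.49 to 9.39% in L1L2-AKO. Of the 13 genes, 1 (7.69%) was lower in edgeR's test, beside 7.18% of all genes, and 0 were higher. At an unadjusted p under 0.05, 4 were lower and 0 higher, beside 2405 lower and 2423 higher of 15674 genes tested. The fold change was below 0 for 12 of 13, with a median of -0.34, and 6 genes (46.2%) were without overlap, all lower in L1L2-AKO, beside 18.4% of all genes. DESeq2 called 4 of them lower (mt-Nd4, mt-Nd4l, mt-Nd5 and mt-Nd6, beside 10.2% of all genes in that test) and 0 higher, and limma-voom called 1 lower and 0 higher.

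The gene past the threshold was mt-Nd6 (chrM:13552-14070), a membrane subunit of complex I and the member encoded on the minus strand of mtDNA, while the other 12 lie on the plus strand. It was at 2620, 2787 and 2530 CPM in L1L2-FF and at 945, 1390 and 1520 CPM in L1L2-AKO, a log2 fold change of -1.04 ± 0.21 (SE; edgeR adjusted p by Benjamini-Hochberg 0.014). All L1L2-FF libraries were well above all L1L2-AKO libraries. Without L1L2-FF replicate 1 or L1L2-AKO replicate 2 the adjusted p was 0.053 and 0.0502 in edgeR (Benjamini-Hochberg), at fold changes of -1.06 and -1.10. Per length, mt-Nd6 stood at 0.946, 0.934 and 0.964 of its neighbour mt-Nd5 in L1L2-FF and at 0.619, 0.731 and 0.665 in L1L2-AKO. The strand setting of the counting is not given in the sources used here, and without strand, reads of mt-Nd6 and of any RNA from the opposite strand at the same place cannot be told apart.

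The share of each gene in all mtDNA subunit counts was also taken, since it does not depend on the scaling of the libraries. The share of mt-Nd6 was 2.44 ± 0.16% in L1L2-FF and 1.46 ± 0.13% in L1L2-AKO, and those of mt-Nd5 (9.06 ± 0.71% and 7.62 ± 0.25%) and mt-Nd4 (8.74 ± 0.52% and 7.85 ± 0.12%, SD, n = 3) were also lower in L1L2-AKO without overlap. The share of mt-Nd1 was 12.0, 9.88 and 14.2% in L1L2-FF and 16.9, 15.9 and 15.2% in L1L2-AKO, higher without overlap. The level of mt-Nd1, the first subunit gene after the ribosomal genes, was 13063 ± 2383 CPM in L1L2-FF and 13919 ± 1617 CPM in L1L2-AKO (SD, n = 3), with a fold change of 0.09 ± 0.25 (SE) that turned to -0.045 without L1L2-FF replicate 2. The most abundant transcript, mt-Co1, a catalytic subunit of complex IV, was at 44171, 43638 and 35270 CPM in L1L2-FF and at 27840, 33895 and 38866 CPM in L1L2-AKO, with overlap and a share of 37.8 ± 4.2% and 38.3 ± 0.2%.

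For the remaining members, mt-Cytb, the cytochrome b of complex III, was at 20750 ± 1470 CPM in L1L2-FF and 15720 ± 3024 CPM in L1L2-AKO (SD, n = 3; log2 fold change -0.40 ± 0.26, SE). The complex I subunit genes mt-Nd2 and mt-Nd3 had fold changes of -0.29 and -0.31, and mt-Nd4, mt-Nd4l and mt-Nd5 of -0.46, -0.75 and -0.55. In complex IV, mt-Co2 and mt-Co3 were at -0.29 and -0.34, and in complex V mt-Atp6 and mt-Atp8 were at -0.27 and -0.56. None of these passed the threshold. Over all 6 libraries, the 13 genes had the order mt-Co1, mt-Cytb, mt-Nd1, mt-Nd2, mt-Nd4, mt-Nd5, mt-Nd6, mt-Co2, mt-Atp6, mt-Co3, mt-Nd4l, mt-Nd3 and mt-Atp8 in mean level per length, from 24129 to 79.5 CPM per kb. The genotypes differed in it at mt-Cytb and mt-Nd1, which were at 18138 and 13650 CPM per kb in L1L2-FF and at 13741 and 14544 CPM per kb in L1L2-AKO. The order is also hard to read for the genes that nuclear copies of mtDNA resemble, since from 51.1 to 100% of the 50-base stretches of mt-Co1, mt-Co2, mt-Co3, mt-Atp6, mt-Nd3, mt-Nd4 and mt-Nd4l occur in other annotated transcripts. The 6 genes with less than 10% of such stretches had a median fold change of -0.48, with 1 lower. The transcripts of mt-Atp8 and mt-Atp6 overlap by 43 bases and those of mt-Nd4l and mt-Nd4 by 7.

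**Figure D4:**
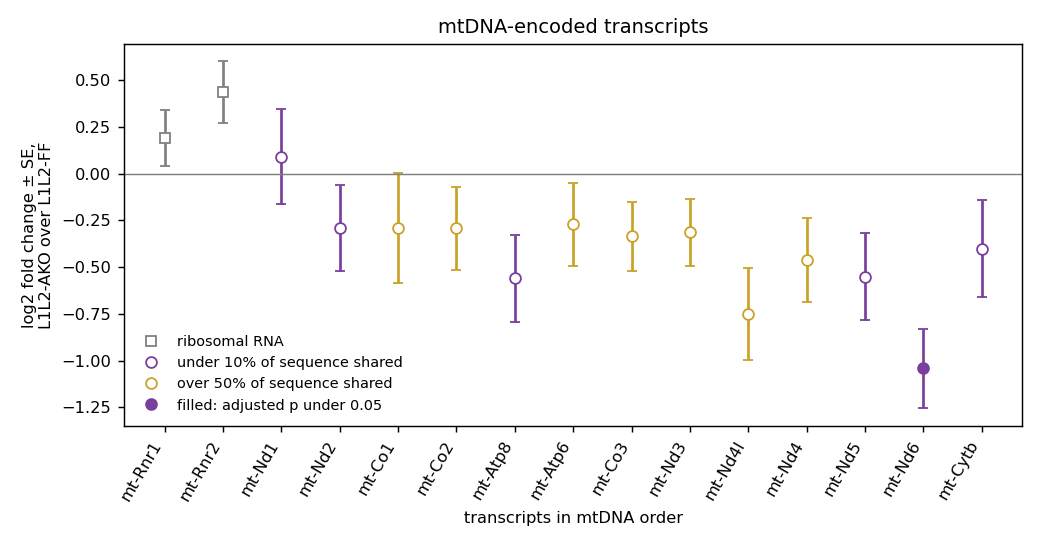
Fitted log2 fold change of L1L2-AKO over L1L2-FF with its SE for the 13 subunit genes and both ribosomal RNAs in their order on mtDNA. Values run from 0.44 at mt-Rnr2 to -1.04 at mt-Nd6, the filled point, and yellow points mark genes that share over 50% of their sequence with other transcripts.

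Neither of the ribosomal RNAs of mtDNA, the structural RNAs of the mitochondrial ribosome, passed the threshold. Both were higher in every L1L2-AKO library than in any L1L2-FF library, as were 18.0% of all genes tested. The smaller, mt-Rnr1, was at 696, 618 and 522 CPM in L1L2-FF and at 700, 698 and 699 CPM in L1L2-AKO (0.19 ± 0.15, SE). Its nearest libraries, at 696 and 698 CPM, were thus almost level. The larger, mt-Rnr2, was at 2198, 1841 and 1909 CPM in L1L2-FF and at 2685, 2682 and 2680 CPM in L1L2-AKO (0.44 ± 0.16, SE). The libraries were made from oligo(dT)-selected RNA, a step meant to leave ribosomal RNA out.

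Both genomes were set against each other within each library. The ratio of the summed mtDNA to the summed nuclear level was 6.20, 7.76 and 4.91 in L1L2-FF and 6.10, 7.30 and 8.93 in L1L2-AKO, with overlap. On the log2 scale the difference of means was 0.25, beside a pooled SD of 0.30. With the median log2 CPM over the genes of each genome in place of the sum, the mtDNA median stood above the nuclear median by 4.25, 4.73 and 3.98 in L1L2-FF and by 3.43, 3.96 and 4.09 in L1L2-AKO. These values overlapped too, but the difference of means was -0.49 (4.32 ± 0.38 against 3.83 ± 0.35, SD, n = 3), larger than either SD and of the opposite sign. That median falls on mt-Nd6 itself in 5 of the 6 libraries. Whether the nuclear and mtDNA genes differed in their change therefore depended on the summary, and no test of it was made.

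The genes that surround the subunits were counted from lists of known function. Of 9 genes for electron carriers and entry into the chain, 4 were lower (44.4%, beside 7.18% of all genes tested) and 0 higher in L1L2-AKO, with a median of -0.51. They were Sqor, which feeds electrons from sulfide to ubiquinone (-1.58 ± 0.14, SE; 85.9, 101 and 73.7 CPM in L1L2-FF against 29.5, 29.3 and 28.3 CPM in L1L2-AKO), Prodh, the proline dehydrogenase (-0.99), and Etfb and Etfa, the electron transfer flavoprotein of fatty acid oxidation (-0.76 and -0.51). The cytochrome c gene Cycs was not past the threshold (-0.49 ± 0.24, SE). Unadjusted, 6 of the 9 were lower at p under 0.05 and 0 higher, beside 2405 lower and 2423 higher of 15674 genes tested.

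Assembly factors build the complexes without staying in them. Of the 51 tested among 55 listed for all complexes, 5 were lower and 0 higher (9.80%, beside 7.18% of all genes), with a median of -0.28. At an unadjusted p under 0.05, 17 were lower and 0 higher, beside 2405 lower and 2423 higher of 15674 genes tested. For complex I, 4 of 16 were lower, with Ndufaf1 the most negative (-0.63 ± 0.12, SE), and the median was -0.39. For complex V, 1 of 6 was lower, Fmc1 (-0.76 ± 0.17, SE). For complexes II and III 0 of 10 passed the threshold in edgeR, with 2 lower and 0 higher at an unadjusted p under 0.05, and for complex IV 0 of 19, with 4 lower and 0 higher, at medians of -0.19 and -0.22.

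The genes for mtDNA replication and transcription included 4 of 16 that were lower (25%, beside 7.18% of all genes tested) and 0 higher, with a median of -0.34. Polg2, the accessory subunit of the mtDNA polymerase, was at 24.6 ± 2.80 CPM in L1L2-FF and 13.2 ± 2.20 CPM in L1L2-AKO (SD, n = 3; -0.90 ± 0.17, SE), and the others were Top1mt, Mterf4 and Mterf2. The mtDNA packaging and transcription factor Tfam was without overlap but not past the threshold (-0.34 ± 0.12, SE). Among 12 regulators of OXPHOS genes, 2 were lower (16.7%, beside 7.18% of all genes tested), Nrip1, a corepressor of oxidative genes (-1.17 ± 0.16, SE), and Ppara, a receptor that drives fatty acid oxidation (-0.84 ± 0.18, SE). Pprc1, a relative of the coactivator PGC-1alpha, was higher (0.73 ± 0.13, SE). Ppargc1a, which encodes PGC-1alpha, was at 20.9, 31.7 and 29.2 CPM in L1L2-FF and at 12.1, 18.3 and 22.1 CPM in L1L2-AKO, with overlap (-0.64 ± 0.24, SE), and Esrra, a receptor it acts through, was at -0.31 ± 0.18 (SE), neither past the threshold.

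Another list, labelled mitochondrial mass proteins, held 15 genes for other mitochondrial proteins. Of these, 2 were lower (13.3%, beside 7.18% of all genes tested) and 0 higher, with a median of -0.14. Those 2 were Mfn2 and Opa1, which act in mitochondrial fusion (-0.74 ± 0.15 and -0.45 ± 0.13, SE). Transcripts of this list had a summed level of 3190 to 4833 CPM in L1L2-FF and 2869 to 3014 CPM in L1L2-AKO, lower without overlap. Transcript levels do not measure mitochondrial content, which was not tested.

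**Figure D5:**
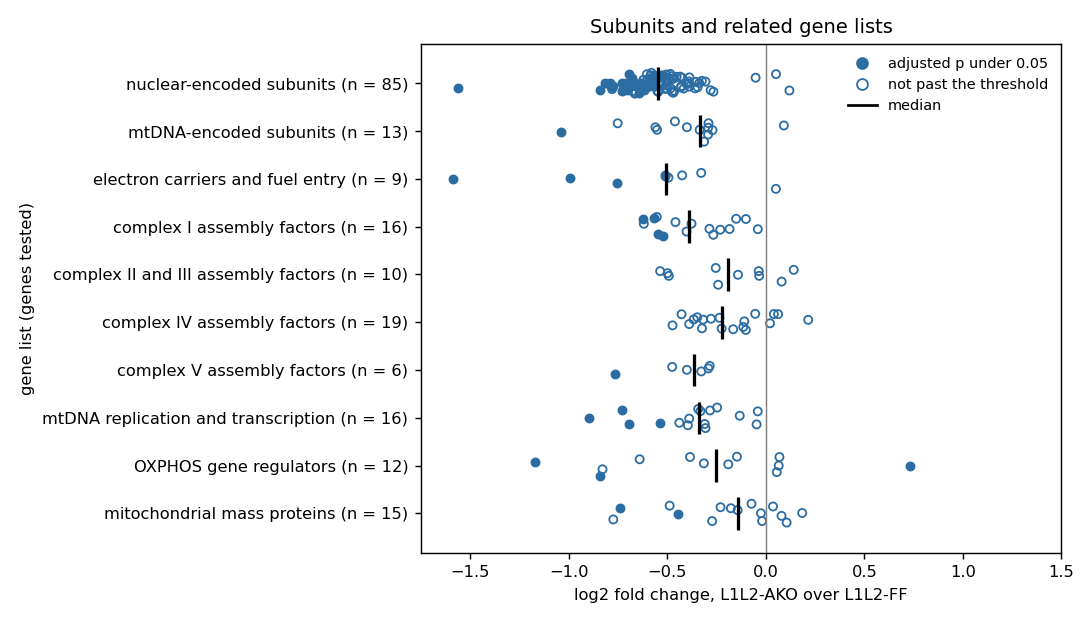
Fitted log2 fold change of L1L2-AKO over L1L2-FF for the subunits and for 8 lists of related mitochondrial genes, with filled points for an edgeR adjusted p under 0.05 and black lines at the medians. Among the lists plotted, the nuclear-encoded subunits have the most negative median (-0.55) and the mitochondrial mass proteins the least negative (-0.14).

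Markers of cell types were counted in the same libraries, to be read beside the 7.18% of all genes tested that were lower and the 9.28% that were higher. Unadjusted counts of markers are to be read beside 2405 lower and 2423 higher of 15674 genes tested. In bulk RNA, fewer cells of a type and less RNA per cell cannot be told apart, and the part of these markers in the OXPHOS results was not tested. Of 10 mature adipocyte markers, 4 were lower and 0 higher in L1L2-AKO (median -0.60), with summed levels of 15653 to 19151 CPM in L1L2-FF and 11582 to 13979 CPM in L1L2-AKO, Adipoq at -1.26 ± 0.21 and Fabp4, not past the threshold, at -0.30 ± 0.21 (SE). Of 12 brown and beige adipocyte markers, 2 were lower and 0 higher (median -0.43, 10 of 12 fitted below 0), with sums of 484 to 817 CPM and 496 to 571 CPM that overlapped. The 2 were Cidea, a lipid droplet protein (-1.26 ± 0.29, SE), and Tmem26, a beige marker at low levels (-1.78 ± 0.42, SE). Ucp1, the uncoupling protein, was at 144, 175 and 361 CPM in L1L2-FF and at 160, 255 and 218 CPM in L1L2-AKO (-0.10 ± 0.34, SE), with a wide spread in L1L2-FF and no change past the threshold. Skeletal muscle markers, of which 6 of 12 were tested and 0 passed the threshold (3 lower and 0 higher at an unadjusted p under 0.05), summed to 13 to 21.4 CPM in L1L2-FF and 3.49 to 10.6 CPM in L1L2-AKO, without overlap. Macrophage markers were higher for 11 of 12 (median 1.51), with sums of 272 to 527 CPM in L1L2-FF and 981 to 1094 CPM in L1L2-AKO.

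The other cell types had medians below 0. These were -1.58 for Schwann cell, -0.87 for mural cell, -0.45 for progenitor, -0.45 for endothelial and -0.19 for red cell markers. At an unadjusted p under 0.05 in edgeR, 6 Schwann cell markers were lower and 1 higher. Of 8 progenitor markers 2 were lower and 0 higher (sums of 468 to 685 and 349 to 438 CPM), of 7 mural cell markers 2 were lower and 1 higher (1024 to 1375 and 771 to 1035 CPM), and of 7 Schwann cell markers 4 were lower and 1 higher (844 to 1747 and 762 to 1410 CPM). Endothelial markers (2151 to 2825 and 1254 to 2749 CPM) and red cell markers (1521 to 2945 and 1655 to 1800 CPM) had 0 of 10 and 0 of 7 past the threshold in edgeR, with 2 and 0 lower and 0 higher at an unadjusted p under 0.05.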

How the data were processed

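The authors sequenced poly(A)-selected RNA and, per the submitters' processing notes, used HISAT2 2.1.0 and StringTie 1.3.5 with mm10. The deposited values are whole-number counts for each gene symbol, not normalized, in 37384 rows, of which 0 name no gene. The annotation, counting program and strand setting are not given in the sources used here. Groups and replicate numbers follow the labels. The study calls the libraries biological replicates, and replicates differed by more than sampling noise. Total counts were 30548473 to 32107917.

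Counts were tested with edgeR 4.0.16 in R 4.3.3: filterByExpr (minimum count 10, minimum total 15) kept 15674 genes, TMM scaling, quasi-likelihood test, two-sided, Benjamini-Hochberg adjustment over all tested genes, threshold 0.05. SE is the absolute log2 fold change over the square root of F. CPM is scaled by TMM, and CPM per kb divides it by the GENCODE M21 exon length of the gene, all isoforms merged. The test was checked on simulated counts. Python 3.11.15, pandas 2.3.3 and matplotlib 3.10.9 made tables and plots.

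Members and lists were chosen with earlier results of these data known. Named were all mtDNA members, isoform pairs, complex II, per complex the most abundant member per length and the largest changes past the threshold without overlap, the largest changes of each list, fixed regulators, and abundant markers. Further members were named after their values were seen. Symbols matched GENCODE M21 for 96 members and through a synonym for 2. Alternatives were DESeq2 1.42.0 (size factors, Wald test), limma-voom (limma 3.58.1), other scalings and filters, a replicate block and each library left out.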

Additional observations from a re-analysis of the deposited data

How the results depend on the processing

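The direction of the nuclear and of the mtDNA median was kept in every alternative run, at -0.71 to -0.39 and -0.50 to -0.19 on the log2 scale, and 93 of the 98 members kept their sign throughout. The scalings and other fits moved the median over all genes by -0.0349 to 0.0107. Counts of members past the threshold were less steady. Nuclear members lower in L1L2-AKO numbered 25 in edgeR's test, 24 to 36 with other scalings, filters or limma-voom, 44 with DESeq2's Wald test and 4 to 75 with each library left out. mtDNA members lower numbered 1, but 4 with DESeq2's Wald test, 2 without a filter on low counts and 0 to 1 with each library left out. Genes that differed in all numbered 2580, and 1281 to 2845 with each library left out. Of the 26 members past the threshold, 4 stayed past it in all 6 fits that leave out a library and 20 in all other alternatives. The ratio of mtDNA to nuclear levels differed by 0.08 to 0.42 with each library left out and by -0.49 with medians over genes, where the median gene is mostly mt-Nd6. Leaving out processed pseudogenes gave 25 of 82 lower (median -0.56), and leaving out mtDNA genes with shared sequence gave 1 of 6 (median -0.48). Both were chosen after seeing the data. They count fewer members of the same fit, so no call could change.

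With each library left out, the log2 fold change ran from -0.045 to 0.21 for mt-Nd1 and from -0.142 to 0.274 for Atp5g1, below 0 without L1L2-FF replicate 2. It ran from -0.606 to 0.027 for Ndufa4l2 and from -0.198 to 0.168 for Cox4i2, above 0 without L1L2-AKO replicate 3, and for Cox4i2 also without L1L2-FF replicate 1 (0.105). For Cox6b2 it ran from -0.0111 to 0.138, below 0 without L1L2-FF replicate 1. None of these 5 genes passed the threshold in any alternative, and the cause was not tested.

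Whether the replicate numbers pair the libraries was not settled. Deviations of same-numbered libraries from their genotype means correlated at 0.19, 0.26 and -0.05. L1L2-FF replicates 1 and 2 correlated best with their same-numbered libraries, but L1L2-FF replicate 3 with L1L2-AKO replicate 1 (0.21). Deviations from a mean of 3 libraries are too few to decide this. With the replicate block, 19 nuclear and 2 mtDNA members were lower, the latter mt-Nd6 and mt-Nd4l, and 2514 genes differed in all. With 3 libraries a side, members near the threshold depend on single libraries, and pooling of mice hides the spread between animals.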
